A study of Mus musculus with 6 samples.

Results

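Haem, the iron-bearing ring that cytochromes, catalase and globins carry, is assembled by a short chain of enzymes that starts in the mitochondrion, passes through the cytosol and ends in the mitochondrion again. The RNA levels of 9 genes of this chain, namely Slc25a38, Alas1, Alas2, Alad, Uros, Urod, Cpox, Ppox and Fech, were read from a table of 55401 mouse genes in 6 RNA-seq libraries. The genes were chosen by name, and all 9 were found by their Ensembl identifiers. In most cells Alas1 sets the pace of the pathway and is held back by haem itself, whereas red cell precursors use the separate gene Alas2, which is switched on by the transcription factor Gata1 and translated when iron is at hand. Slc25a38 carries glycine into the mitochondrion for this first reaction.

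The libraries came from a cultured line that the labels call female germline stem cells (FGSCs), of strain C57BL/6 and kept for more than 20 passages on STO feeder cells, which are mouse fibroblasts stopped from dividing, in medium with GDNF, EGF, bFGF and LIF. The control group of 3 libraries was untreated, and the metformin group of 3 libraries received 1 μM metformin, a biguanide used against diabetes, for 24 h. Groups follow each library's own treatment label, since a general protocol text naming metformin is attached to all 6 libraries alike. No genetic change was named for either group, and both share the line, the feeders and the medium. Nothing in the labels says that libraries of a group came from separate cultures, so p-values measure only the spread between these libraries, which may be technical.

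Markers were checked first. Of 6 germ cell markers that the study used, 3 were listed at 0 in every library and 5 had a mean under 0.5 FPKM (fragments per kilobase of gene, scaled to the number of mapped fragments). Ddx4, the gene of the germ cell protein Mvh, had at most 0.05 FPKM, and the highest of the 6, Ifitm3, had 0.32 to 1.32 FPKM. The summed level of these markers was 0.48 to 1.38 FPKM in the control group and 0.33 to 0.93 FPKM with metformin. Of 10 blood and mast cell genes, 6 had a mean under 1 FPKM, among them the mast cell genes Fcer1a and Tpsb2, which were listed at 0. The other 4 were Kit, Cpa3, Gata2 and Ptprc, and the list summed to 743 to 775 FPKM in the control group and 737 to 752 FPKM with metformin. Kit had 116 to 118 FPKM in the control group and 117 to 119 FPKM with metformin. The groups did not overlap for the other 3, with 356 to 386 against 330 to 348 FPKM for Cpa3, 255 to 265 against 273 to 279 FPKM for Gata2 and 13.5 to 13.8 against 12.8 to 13.2 FPKM for Ptprc, and 0 of the 4 passed an adjusted p of 0.05 in limma. Over all 10661 genes tested, those with a mean of at least 1 FPKM, 17.0% had groups that did not overlap and 0.0281% passed. The part of the blood and mast cell genes in the results was not tested. Fibroblast markers of the feeder cells summed to 1.38 to 1.51 FPKM in the control group and 1.11 to 1.84 FPKM with metformin, and ovarian somatic markers to 2.14 to 2.77 and 2.49 to 2.68 FPKM. The defining germ cell markers were thus absent or nearly so in these RNA-seq libraries. The paper, by contrast, reports all 6 by RT-PCR in its cultured FGSCs, and Mvh also by immunofluorescence. The libraries are called by their treatment here. In such bulk samples, fewer cells of a type and less RNA per cell cannot be told apart.

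The genes differed widely in level, and Alas1 was not among the high ones. Mean levels over the 6 libraries were 22.4 FPKM for Cpox, 20.7 for Alad, 16.6 for Urod, 8.91 for Slc25a38, 4.44 for Alas1, 3.99 for Fech, 2.81 for Uros, 2.25 for Ppox and 0.09 for Alas2. FPKM is a level per length, so a comparison between genes depends on the length used for each, which the sources do not give. GENCODE M1 lengths were 3186 bp for Cpox, 1871 for Alad and 2591 for Urod. They were 4310 bp for Alas1, 2901 for Fech, 3576 for Uros and 4515 for Ppox. The part of length in the order of levels was not tested. On this scale the genes fell into a high set (Cpox, Alad and Urod) and a low set (Alas1, Fech, Uros and Ppox). Slc25a38 lay between them, and Cpox had 9.96 times the FPKM of Ppox, the next enzyme of the chain. Of the 8 pairs of neighbours in this order, 7 did not overlap over the 6 libraries. The exception was Cpox and Alad, whose ranges of 21.99 to 23.01 and 19.00 to 22.91 FPKM overlapped, with Cpox higher in 5 of 6 libraries. Among the 10661 genes whose mean reached 1 FPKM, Cpox stood at the 75.1th percentile of level, Slc25a38 at the 48.4th, Alas1 at the 29.5th and Ppox at the 13.8th.

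**Figure D1:**
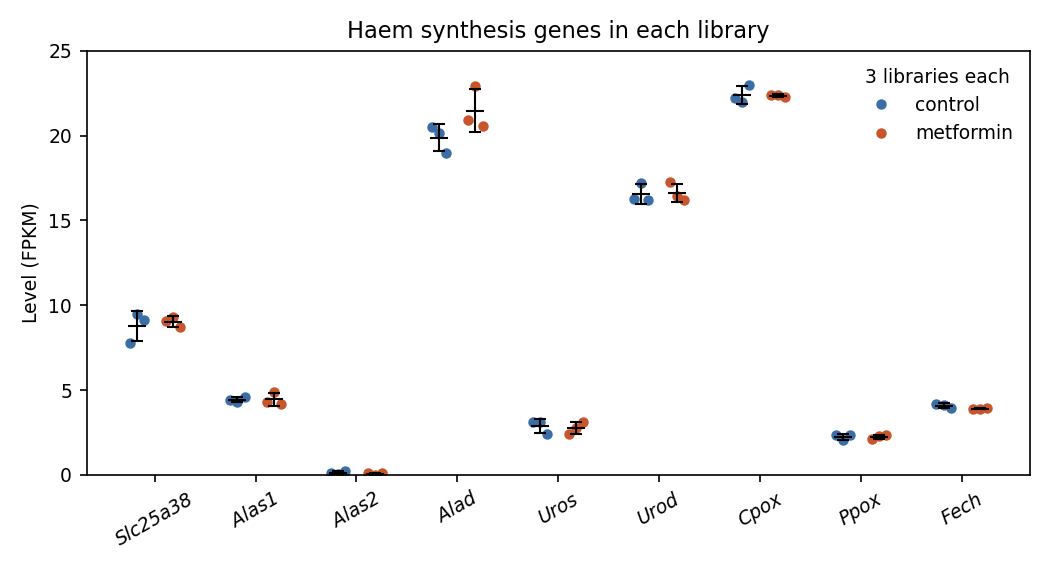
Level of each haem synthesis gene (FPKM, vertical axis) in the order of the pathway. Points are single libraries, 3 control and 3 metformin, and black marks give the mean ± SD of each group. Cpox, Alad and Urod lie between 16.19 and 23.01 FPKM in every library, while Alas2 does not exceed 0.21 FPKM.

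Nearly all RNA measured for the enzyme of the first step was that of Alas1. Alas1 encodes the housekeeping 5-aminolevulinate synthase and sits on the minus strand of chromosome 9 (106233455 to 106248654, GRCm38). It had 4.43, 4.28 and 4.61 FPKM in control libraries 1 to 3 and 4.28, 4.88 and 4.18 FPKM in metformin libraries 1 to 3. Alas2, which encodes the erythroid enzyme, sits on the plus strand of chromosome X (150547375 to 150570638). It had 0.12, 0.03 and 0.21 FPKM in the control libraries and 0.09, 0 and 0.09 FPKM in the metformin libraries. Alas1 was higher than Alas2 in 6 of 6 libraries without overlap.

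The Alas2 signal rests on very few fragments. With the depth estimated at 13400000 to 14000000 fragments per library and the Alas2 length of 2403 bp in GENCODE M1, these values correspond to about 18 fragments in all 6 libraries together, against about 1591 for Alas1. In metformin library 2, the value of 0 allows a level of up to 0.0893 FPKM, which is what 3 fragments would give there. The ratio of Alas1 to Alas2 was 49.3, with a 95% counting interval of 31.1 to 83.4 (exact Clopper-Pearson). This interval and the limit for 0 cover counting error only. On the scale of log2(FPKM + 1), Alas1 exceeded Alas2 by 2.32 ± 0.124 (SD, n = 6; two-sided exact permutation test with signs flipped within each library, p = 0.03125, the smallest that 6 libraries allow). Because Alas1 was higher in every library, this p could only be the smallest one, so it adds nothing to that order. The 6 libraries also pool both groups. The difference between the genes is 4.67 with a pseudocount of 0.1, since Alas2 is close to 0. In addition, the gene Apex2, which had a mean of 1.85 FPKM, spans the whole of Alas2 in the antisense direction. If the authors' counting ignored the strand, the few fragments of Alas2 and Apex2 cannot be told apart.

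The pair was also compared between the groups. The log2 difference between Alas1 and Alas2 was 2.28 ± 0.0726 in the control group and 2.36 ± 0.17 with metformin (SD, n = 3 each; two-sided exact permutation test, p = 0.7). With 3 libraries in each group, 0.1 is the smallest p this test allows, so it says little about whether the balance of the pair was stable. With a pseudocount of 0.1, the change was 0.43 in place of 0.077 (exact permutation p = 0.4). The difference between groups turned from 0.077 to -0.020 without metformin library 2, the library in which Alas2 was listed at 0.

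Other genes of red cell precursors were split in the same libraries. Of 27 listed erythroid genes, 24 were matched, 19 of which had a mean under 0.5 FPKM and 7 of which were listed at 0 throughout. Of 7 matched globin genes, which encode the protein that takes up most haem in red cells, 5 were listed at 0 in every library and the highest value was 0.26 FPKM, for Hba-a1, whose fragments may be split with its near-identical copy Hba-a2. The membrane gene Slc4a1 was listed at 0, and Klf1, an erythroid transcription factor, had 0 to 0.23 FPKM in the control group and 0.37 to 0.47 FPKM with metformin, too low for the test. On the other hand, transcription factors and receptors that red cell precursors share with other blood cells were present. Nfe2 had 22.1 to 25.5, Zfpm1 17.8 to 21.1, Tal1 15.8 to 17.6, Epor 11.6 to 13.7 and Gata1 3.24 to 3.98 FPKM. Alas2 was therefore near 0 in libraries in which Gata1 itself was measured, at a level below that of Alas1.

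**Figure D2:**
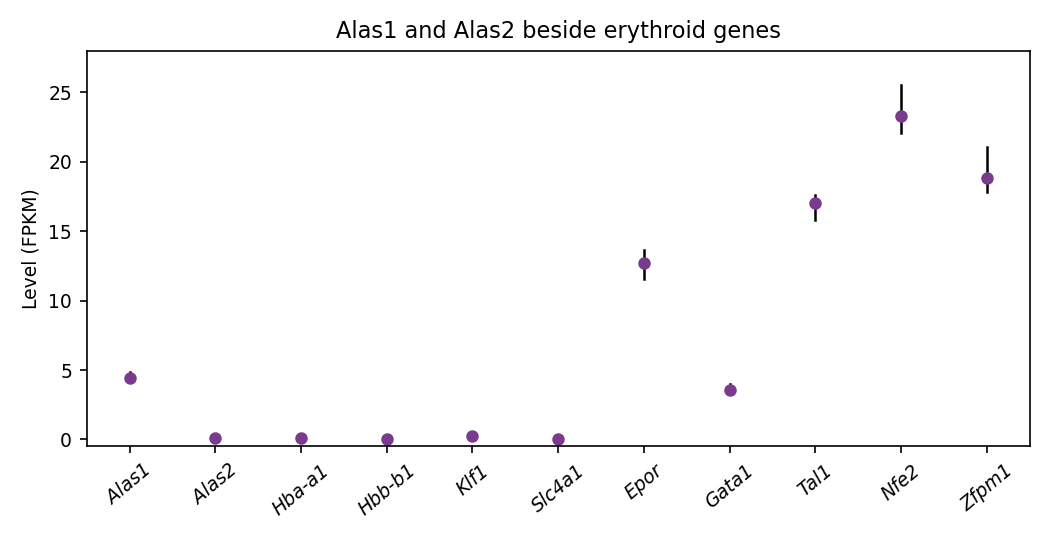
Level (FPKM, vertical axis) of Alas1, Alas2 and 9 erythroid genes, with the mean as a point and the range over the 6 libraries as a line. Alas2, the globins Hba-a1 and Hbb-b1, Klf1 and Slc4a1 lie below 0.5 FPKM, and Epor, Tal1, Nfe2 and Zfpm1 above 11 FPKM.

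Because GATA factors act on haem genes, the 250 bases before each gene's outermost RefSeq start (GRCm38.p6) were searched on both strands for the GATA letters AGATAA and TGATAA. Of 8 genes matched in the promoter table, Alas2 had AGATAA and Cpox had TGATAA, each 86 bases before the start on the opposite strand. These are the genes with the lowest and the highest level of the group. For both genes, the RefSeq start differs from the gene start given with the deposited values. The distance of 86 bases therefore holds for the RefSeq starts only. AGATAA was present in 10.2% and TGATAA in 8.12% of 27025 promoters of the same length. Both windows are shown because they carry the GATA letters, with capitals marking these and the letters CACCC, another motif of erythroid promoters that 51.4% of promoters hold. Bases found in a GENCODE M1 transcript are left out, and with them the CACCC matches of Alas2, at 40, 35 and 30 bases before the start. The Alas2 window is chrX:150547167-150547373 on the plus strand, and the Cpox window is chr16:58669958-58670207 on the plus strand.
Alas2: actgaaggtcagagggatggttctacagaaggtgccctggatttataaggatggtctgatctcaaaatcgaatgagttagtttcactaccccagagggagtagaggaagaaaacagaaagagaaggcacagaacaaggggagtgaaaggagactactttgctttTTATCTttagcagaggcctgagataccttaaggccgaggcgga
Cpox: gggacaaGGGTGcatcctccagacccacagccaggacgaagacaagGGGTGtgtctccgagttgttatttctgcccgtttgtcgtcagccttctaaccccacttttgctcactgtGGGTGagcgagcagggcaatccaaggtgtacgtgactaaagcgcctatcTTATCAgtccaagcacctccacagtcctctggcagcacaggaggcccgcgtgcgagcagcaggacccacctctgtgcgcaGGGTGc
TGATGCA, the letters of an ATF4-type site, and TGACTCA, those of an AP-1 site, were present in none of the 8 windows. They were present in 2.74% and 4.43% of all promoters. A match or its absence here describes letters in a short window and not the binding of a factor.

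To examine the effect of metformin on the pathway, the groups were compared on the scale of log2(FPKM + 1) for the same 10661 genes with limma, which shares the estimate of spread across genes, and Benjamini-Hochberg adjustment over all of them. The added 1 makes changes of low genes look smaller than they are. Of the 9 genes, 8 reached this level, and 0 of the 8 had an adjusted p under 0.05, where 0.0281% of all tested genes did. At an unadjusted p under 0.05 there were also 0 of 8, where 10.8% of all tested genes had such a value. The median log2 fold change of the 8 genes was 0.0019, with 4 higher and 4 lower, beside a median of 0.0041 over all tested genes. Summed over the 9 genes, levels were 80.85 to 82.46 FPKM in the control group and 81.34 to 84.88 FPKM with metformin.

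Alas1, the gene at which the pathway is set in most cells, had nearly equal means in the groups. Its mean was 4.44 ± 0.165 FPKM in the control group and 4.45 ± 0.379 FPKM with metformin (SD, n = 3 each). The log2 fold change was -6.2e-05 (standard error 0.06, 95% interval -0.15 to 0.15, adjusted p = 1.00 from limma). Expressed as a change of FPKM + 1, the interval reaches from -9.67% to 10.7%. Alas2 was below the filter. Its mean was 0.12 ± 0.09 FPKM in the control group and 0.06 ± 0.052 FPKM with metformin (SD, n = 3 each), values that overlapped and lie near the limit of 3 fragments. No fold is given for it.

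The glycine carrier Slc25a38, on chromosome 9 from 120110374 to 120124504, had 7.79, 9.47 and 9.11 FPKM in the control libraries and 9.05, 9.33 and 8.70 FPKM with metformin. Control library 1 was the lowest of all 6, and the groups overlapped. The log2 fold change was 0.04 (95% interval -0.12 to 0.20, adjusted p = 0.881 from limma).

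Alad, which joins molecules of 5-aminolevulinate into the pyrrole porphobilinogen, showed the largest difference among the 8 tested genes. It lies on chromosome 4 from 62509169 to 62519918 on the minus strand. It had 20.49, 20.14 and 19.00 FPKM in the control libraries and 20.91, 22.91 and 20.56 FPKM with metformin, so that each metformin library exceeded each control library, by a margin of 20.56 against 20.49 at the nearest. The means of 19.9 ± 0.779 and 21.5 ± 1.27 FPKM (SD, n = 3 each) differed by 7.97%, with a log2 fold change of 0.10 (standard error 0.05, 95% interval -0.01 to 0.22, adjusted p = 0.492 from limma). Metformin library 2 was the highest, and without it the log2 fold change was 0.06. The difference did not pass the test over all genes.

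Uros and Urod close and trim the ring. Uros, which closes the ring into uroporphyrinogen III, lies on chromosome 7 from 133686243 to 133710072 on the minus strand. It had 3.09, 3.14 and 2.42 FPKM in the control libraries and 2.39, 2.74 and 3.10 FPKM with metformin. The ranges of the groups overlapped almost fully, and the log2 fold change of -0.05 had the widest interval of the group, -0.29 to 0.19 (adjusted p = 0.890 from limma). The antisense gene Bccip, which had a mean of 60.1 FPKM, overlaps 740 bp of the span of Uros, where fragments could be shared if the counting ignored the strand. Urod, which removes carboxyl groups from the ring, lies on chromosome 4 from 116989965 to 116994413 on the minus strand. It had 16.24, 17.23 and 16.20 FPKM in the control libraries and 17.24, 16.43 and 16.19 FPKM with metformin, with overlapping groups and a log2 fold change of 0.0053 (95% interval -0.09 to 0.10, adjusted p = 0.978 from limma).

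The last steps take place in the mitochondrion. Cpox, which makes protoporphyrinogen IX, is found on the plus strand of chromosome 16 (58670292 to 58717636) and was the steadiest gene of the group. It had 22.20, 21.99 and 23.01 FPKM in the control libraries and 22.39, 22.42 and 22.26 FPKM with metformin, with a log2 fold change of -0.0024 (95% interval -0.07 to 0.06, adjusted p = 0.988 from limma). Ppox, which oxidizes this product to protoporphyrin IX, lies on chromosome 1 from 171275990 to 171281186 on the minus strand. It had 2.33, 2.04 and 2.36 FPKM in the control libraries and 2.13, 2.28 and 2.34 FPKM with metformin. Its log2 fold change was 0.0039 (95% interval -0.16 to 0.17, adjusted p = 0.993 from limma), and 907 of its 5197 bp are shared with the antisense gene B4galt3, whose mean was 3.43 FPKM.

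Fech, the ferrochelatase that inserts iron into the ring, had 4.17, 4.14 and 3.93 FPKM in the control libraries and 3.86, 3.89 and 3.92 FPKM with metformin. Each metformin library was below each control library, by 3.92 against 3.93 FPKM at the nearest. The means of 4.08 ± 0.131 and 3.89 ± 0.03 FPKM (SD, n = 3 each) gave a log2 fold change of -0.05 (standard error 0.05, 95% interval -0.16 to 0.06, adjusted p = 0.708 from limma). Alad and Fech were the 2 genes of 8 whose groups did not overlap, where 17.0% of all tested genes showed this. For both, the two-sided exact permutation test gave p = 0.1, the smallest possible with 3 libraries against 3.

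**Figure D3:**
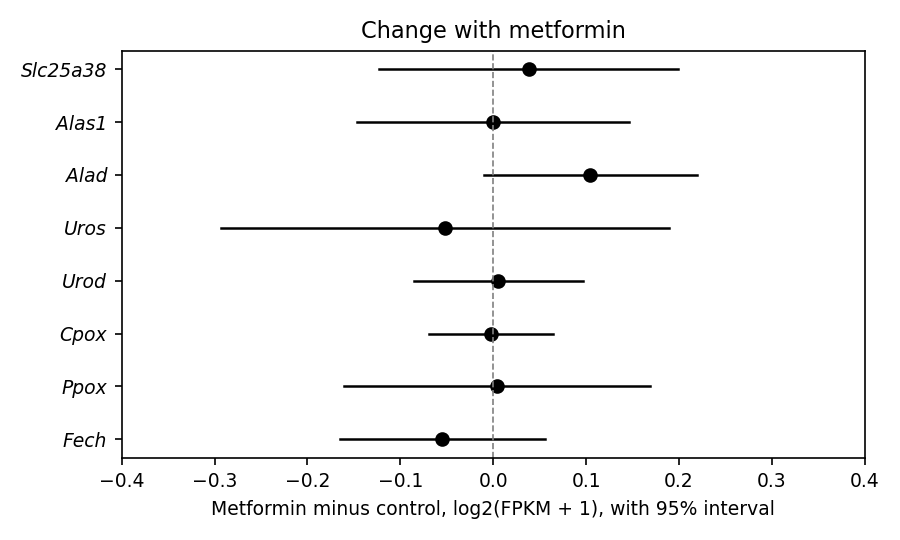
Difference between the metformin and control groups in log2(FPKM + 1) (horizontal axis) for the 8 tested genes, from limma. Points are estimates, lines are 95% intervals and the dashed line is no difference. All 8 intervals include 0, and the widest, that of Uros, runs from -0.29 to 0.19.

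The spread between libraries was compared with the counting error that the estimated fragment numbers give. The 8 tested genes had a mean of about 139 (Uros) to 986 (Cpox) fragments per library. The observed coefficient of variation pools both groups. It thus also holds any difference between group means, which was 7.97% for Alad. Over the 6 libraries, the coefficient of variation was 12.4% for Uros, where counting error gives 8.48%, and 6.19% for Alad, where it gives 4.32%. Slc25a38 also lay above its counting error, with 6.82% against 5.43%. It was 1.54% for Cpox and 3.37% for Fech, where counting error gives 3.18% and 7.91%, and Alas1, Urod and Ppox lay below their counting error as well. The median over the 8 genes was 5.86%, beside 5.19% over all tested genes. These numbers depend on the gene lengths of GENCODE M1, since the lengths behind the deposited values are not given in the sources used here.

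**Figure D4:**
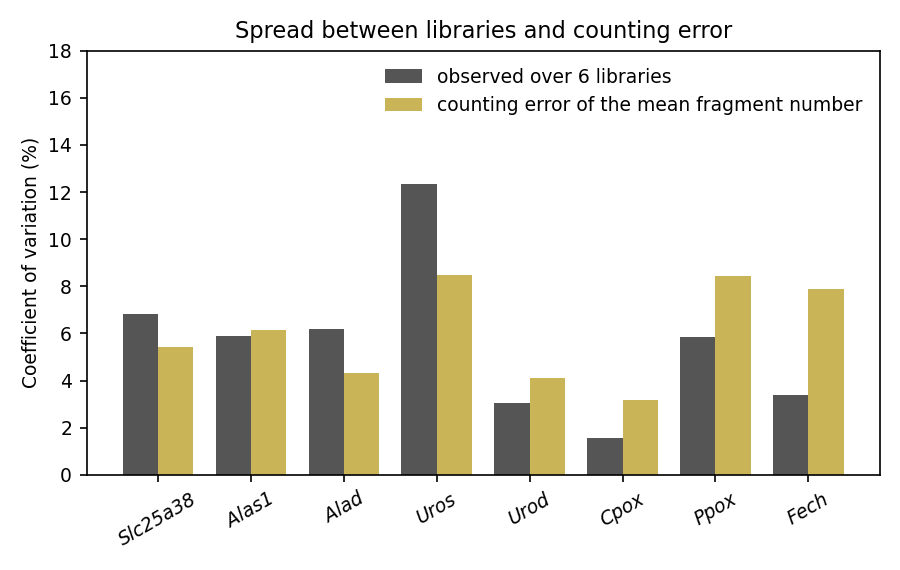
Coefficient of variation (%, vertical axis) of the 8 tested haem synthesis genes. Dark bars give the observed value over the 6 libraries and light bars the value expected from counting the mean number of fragments. Uros is highest with 12.4% observed, and Cpox lowest with 1.54%.

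Genes that serve the pathway were examined as further lists written from general knowledge. Of 22 genes for haem trafficking and cofactors, 18 were tested and 0 had an adjusted p under 0.05, where 0.0281% of all tested genes did. Among the 18, 9 were higher and 9 lower, with a median log2 fold change of 0.0065. The highest of them were Pgrmc1, which binds haem and ferrochelatase, with 133 to 142 FPKM, Slc25a39, a mitochondrial carrier, with 84.3 to 96.7 FPKM, and Tmem14c, which is needed to bring the porphyrin into the mitochondrial matrix, with 81.7 to 89.9 FPKM. The groups did not overlap for 5 of the 18 genes, of which 4 are named after their values were seen, and the same 5 had an unadjusted p under 0.05 in limma. Over all tested genes these shares were 17.0% and 10.8%.

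Among these, Slc25a39 had 84.3 to 88.7 FPKM in the control group and 91.7 to 96.7 FPKM with metformin, a log2 fold change of 0.13 (adjusted p = 0.320 from limma). Slc48a1, which moves haem out of the lysosome, had 66.2 to 67.0 FPKM in the control group and 69.6 to 70.8 FPKM with metformin (log2 fold change 0.08, adjusted p = 0.346 from limma). The plasma membrane glycine transporter Slc6a9 had 4.24 to 4.56 and 4.77 to 5.28 FPKM (log2 fold change 0.14, adjusted p = 0.423 from limma). In the other direction, Clpx, an unfoldase that acts on 5-aminolevulinate synthase, had 17.26 to 17.99 FPKM in the control group and 15.18 to 16.52 FPKM with metformin (log2 fold change -0.14, adjusted p = 0.350 from limma). None of the 5 passed over all tested genes.

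Genes for the breakdown and sensing of haem were examined in the same way. Of 12 listed genes, 10 were tested and 0 passed, where 0.0281% of all tested genes did. Of the 10, 5 were higher and 5 lower, with a median log2 fold change of -0.00049. The haem oxygenases, which open the ring, had 30.1 to 31.2 FPKM for Hmox2 and 22.4 to 24.6 FPKM for Hmox1, and Nfe2l2, the gene of NRF2, had 26.0 to 29.1 FPKM. The groups did not overlap for 1 of the 10 genes, Nr1d1, a nuclear receptor that binds haem, which had 3.78 to 4.07 FPKM in the control group and 4.26 to 4.49 FPKM with metformin (log2 fold change 0.13, adjusted p = 0.424 from limma). It was singled out after its values were seen, and 17.0% of all tested genes had groups that did not overlap.

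In the list for haem use, some genes were high and others absent. Of 20 listed, 12 were tested and 0 passed, where 0.0281% of all tested genes did. Of the 12, 6 were higher and 6 lower, with a median log2 fold change of 0.01. Cyc1, the cytochrome of respiratory complex III, had 76.6 to 83.9 FPKM, Cyb5b, a cytochrome of the outer mitochondrial membrane, 76.9 to 80.6 FPKM, and Cyba, a subunit of NADPH oxidase, 72.3 to 85.5 FPKM. For Cyba alone of the 12 the groups did not overlap, with 72.3 to 78.7 FPKM in the control group and 79.8 to 85.5 FPKM with metformin (log2 fold change 0.13, adjusted p = 0.365 from limma), beside 17.0% of all tested genes without overlap. Its partner Cybb was listed at 0 in all 6 libraries, as was myoglobin (Mb). In the erythroid list, only the 5 genes above the filter were tested, 0 passed and the groups overlapped for all 5. Of these, 5 were higher and 0 lower, with a median log2 fold change of 0.07. Their lowest adjusted p was 0.598 in limma. Over all 10661 tested genes, 5580 were higher, the median was 0.0041 and 0.0281% passed.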

How the data were processed

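RNA-seq was measured in 3 control and 3 metformin libraries. The table deposited by the authors gives FPKM to 2 decimals for 55401 Ensembl genes, in a column for each library. The submitters' processing notes name HISAT2, DESeq2 and mm9 without roles, whereas the gene positions in the table are those of GRCm38. The counter, its strand setting and the annotation are not given in the sources used here. The labels name a stranded kit and the paper another kit. Columns were assigned by the titles in the labels, and 0 were left over. FPKM holds no counts, so no count test was run.

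Depth was estimated from the steps of FPKM in genes with a single exon under 400 bp in GENCODE M1, with 363 to 400 values per library. It came to 13400000, 13800000 and 14000000 fragments in control libraries 1 to 3 and 14000000, 14000000 and 13800000 in metformin libraries 1 to 3, and 100% of the values used lay within 0.1 of a whole number of fragments. Values were compared as log2(FPKM + 1) for the 10661 genes whose mean reached 1 FPKM by limma 3.58.1 in R 4.3.3 (eBayes with a trend, two-sided, Benjamini-Hochberg, threshold 0.05), without a replicate block. Single values were compared by exact permutation tests (scipy 1.17.1). The fits were tested on simulated data. The changes put in were larger than the estimate for any tested member, so this says little about changes as small as theirs. The members and lists were chosen with earlier results of these data known. All members were named, and of the other lists the 3 with the highest mean, plus genes singled out as stated, while some listed genes are counted but not reported here by name. Symbols were matched by Ensembl identifier, or by RefSeq synonyms of GRCm38.p6, which also gave the promoter sequences. No pair of libraries shared over 1.48% of its values. Alternatives were other pseudocounts, filters, scalings and spreads, a replicate block and each library left out.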

Additional observations from a re-analysis of the deposited data

How the results depend on the processing

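None of the 8 tested haem synthesis genes passed an adjusted p of 0.05 in limma under any alternative run, and the lowest value was adjusted p = 0.366. With a mean of at least 10 FPKM required, 3 of them remained in the test. The counts for all haem lists and the erythroid list stayed at 0 under all of them. The number of genes called in the whole table went from 3 to 7 without a filter, where Alas2 had adjusted p = 0.796. Log2 fold changes near 0 changed sign when single libraries were left out, the range being -0.056 to 0.035 for Alas1, -0.14 to 0.017 for Uros, -0.020 to 0.033 for Urod, -0.015 to 0.016 for Cpox, -0.042 to 0.031 for Ppox and -0.038 to 0.089 for Slc25a38, and quantile normalization gave -0.0074 for Ppox. The range was 0.059 to 0.13 for Alad and -0.076 to -0.042 for Fech. For the change of the Alas1 to Alas2 difference it was -0.020 to 0.13, and a pseudocount of 0.1 gave 0.43 (exact permutation p = 0.4). That difference itself was 2.27 to 2.34 with a library left out, where 5 libraries cannot give a p under 0.0625. The cause of these moves was not tested.

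With the replicate number as a block, 2 genes were called in the whole table and 0 of the 8, with adjusted p = 0.515 for Alad and adjusted p = 0.757 for Fech in limma. For the change of the Alas1 to Alas2 difference, 0.077, a block cannot alter the value in this balanced layout. With the block, an exact test that flips the signs of the 3 differences between libraries of the same number gave p = 0.5. Without it, the exact permutation of 3 against 3 libraries gave p = 0.7. The smallest possible p differs between these tests, so the p-values cannot be set against each other. For libraries of the same number, deviations from the group means correlated by -0.032 to 0.048 across genes. For libraries of different numbers the range was -0.050 to 0.030. Whether the same number marks anything shared was not tested. Depth limits Alas2, which had about 3 fragments per library.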
